A study of Mus musculus with 11 samples.

Results

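Lrmda, Plac9a, Tmem254a, Duxbl1, Entpd4, Nnt, Wdfy1, Crb1, Afm and Camk2b are 10 genes away from the chromosome of Foxa3 whose lung RNA level differed between Foxa3 knockout mice and their littermates. They were picked for that difference, so the genotype differences of these genes are given below as descriptions, with no test. The array carried 20 probes for the 10 genes, of 41174 probes in all. Of these 20 probes, 16 were well above background on at least 2 of the 11 arrays and entered the fit, with at least 1 probe for each of the 10 genes, among 32946 probes for 21870 genes. The 5 genes Lrmda, Plac9a, Tmem254a, Duxbl1 and Entpd4 lie on chromosome 14, Wdfy1 and Crb1 on chromosome 1, Nnt on chromosome 13, Afm on chromosome 5 and Camk2b on chromosome 11.

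Total RNA of lung was hybridised to one-colour Agilent arrays from 2 knockout (labelled Foxa3-/-) and 3 littermate control (labelled WT) samples given saline, and from 3 knockout and 3 wild-type samples given OVA, by background the egg allergen ovalbumin, used to induce allergic airway inflammation. The labels name neither a strain, an age, nor the part of Foxa3 that was deleted, and whether 1 array stands for 1 animal is not given, so p-values measure only the spread between these samples. Lung is a mixture of cell types, and fewer cells of a type cannot be told apart from less RNA per cell. Levels are log2 intensities minus the 75th percentile of the array, so 0 is that percentile, and positive differences mean more RNA signal in the group named first.

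The 10 genes have different roles. Lrmda is a leucine-rich-repeat protein of melanocyte differentiation, mutated in a human form of albinism. Plac9a is a small secreted protein first found in placenta, Tmem254a a membrane protein with no settled role, and Duxbl1 a double-homeobox transcription factor; all belong to a stretch of chromosome 14 that exists in several near-identical copies. Entpd4 hydrolyses nucleoside diphosphates in the Golgi and lysosome. Nnt, an inner mitochondrial membrane enzyme, uses the proton gradient to make NADPH, and mice of some laboratory strains are known to carry a deletion in it. Wdfy1 binds a phosphoinositide of endosomes and links Toll-like receptors to the adaptor TRIF. Crb1 is a Crumbs polarity protein best known from retina. Afm (afamin) is a vitamin E-binding plasma protein of the albumin family made mainly by liver. Camk2b is the beta subunit of the calcium- and calmodulin-dependent kinase CaMKII, abundant in brain.

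What each spot reads is set by its probe, and 3 of the results below turn on the probe. Shown are the first 30 of 60 bases, 5′ to 3′, as the scanner files list them, all in lower case because no base is singled out. The first pair is Entpd4 and the clone AK086749, whose probes share 50 bases on opposite strands of chromosome 14. For AK086749, bases 21 to 50 are shown, the complement of the Entpd4 stretch.
Entpd4 A_51_P302222: ggtgttttcttgacagatgtaagactttag
AK086749 A_52_P677074: ctaaagtcttacatctgtcaagaaaacacc
The next pair is Wdfy1, whose probes gave genotype differences of opposite direction.
Wdfy1 A_51_P390314: tccatgaatggagacccttcatgtagctca
Wdfy1 A_52_P511821: ctgctttgaagacagaatgactcctgtgga
The last pair is Nnt, of which only the first showed a genotype difference.
Nnt A_52_P395228: ccaaatctgcagcaggttatcagccttcac
Nnt A_52_P593890: tcctctgggatgttttaaatacaaagttgg

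On each array 71.16% to 78.87% of the 41174 probes were well above background. The Foxa3 probe passed the scanner's detection call on no knockout array and on all 6 wild-type arrays, at -9.18 to -7.73 in knockouts and -6.17 to -3.99 in wild type. Which part of the transcript was deleted is not given, so this checks the labels only if the probe lies in it. Across all tested probes limma called 73 between genotypes (0.222% of 32946), with 28 higher (0.085%) and 45 lower (0.137%) in knockouts. Of the 73, 37 lie on chromosome 7, the chromosome of Foxa3, and 36 elsewhere or at no listed position. These 36 include 14 probes of the 10 genes and 22 of other symbols, 11 higher and 11 lower in knockouts. Of the 16 tested probes of the 10 genes, 10 passed after saline alone (0.103% of all probes) and 11 after OVA alone (0.188%), and nothing is read from these counts, since the genes were picked on this contrast.

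The 5 genes of chromosome 14 were all lower in knockout lung. Lrmda was read by a probe at chr14:20713625-20713684 (mm7, plus strand). Its level was -1.43 and -1.32 in knockout saline lungs, against 0.82, 0.86 and 0.83 in wild-type saline lungs. After OVA it was -1.56, -1.1 and -1.44 in knockouts, against 1.07, 1.05 and 1.1 in wild type. The knockout and wild-type arrays were separated by 1.92 log2 units, and the mean difference over both challenges was -2.33 ± 0.09 (SE), a 5.01-fold lower level in knockouts.

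Plac9a was read by a probe at chr14:23560344-23560772 (minus strand). It measured 3.25 and 3.18 in knockout saline lungs, against 5.30, 5.21 and 5.17 in wild-type saline lungs. In OVA lungs it measured 3.10, 3.09 and 2.90 in knockouts, against 5.0, 4.80 and 4.74 in wild type. The groups of the 2 genotypes stood apart by 1.49 log2 units, and the mean difference was -1.91 ± 0.08, or 3.77-fold lower in knockouts.

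Tmem254a, whose probe lies 34.3 kb from that of Plac9a at chr14:23594602-23594661, differed by nearly the same amount. The knockout values were -0.34 and -0.40 after saline and -0.14, -0.18 and 0.24 after OVA. The wild-type values were 1.68, 1.65 and 1.74 after saline and 1.70, 1.78 and 1.72 after OVA. The mean difference was -1.91 ± 0.09, 3.76-fold lower in knockouts, with the wild-type arrays within 0.13 log2 units of each other.

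Duxbl1, 65.0 kb further on at chr14:23659633-23659692, was a dim gene near the background. It was well above background on 0 of 2 knockout saline and 2 of 3 knockout OVA arrays, and on 6 of 6 wild-type arrays. Its values were -8.80 and -8.11 in knockout saline lungs, against -5.13, -6.14 and -6.03 in wild-type saline lungs. After OVA they were -8.08, -7.00 and -6.25 in knockouts, against -5.48, -4.98 and -5.33 in wild type. The genotypes were only 0.11 log2 units apart at their nearest arrays. After saline Duxbl1 was at least 1.95-fold lower in knockouts, measured to the background limit, and after OVA the mean difference was -1.85 ± 0.45. In the authors' deposited table, which is not background-subtracted, the difference over both challenges was -0.49.

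Plac9a, Tmem254a and Duxbl1 lie within 99.3 kb of each other in mm7. The current RefSeq annotation (GRCm38.p6) lists Plac9, Tmem254 and Duxbl genes in 3 copies each on chromosome 14, and Entpd4 in 2. A probe's intensity may therefore be the sum over copies, and the values above are not assigned to 1 copy. The promoter windows of the copies, 250 bases before to 50 after the start, show how alike they are. The capitals mark the run shared letter for letter with Plac9b (222 of 300 bases) and with Tmem254b (284 of 300 bases). Plac9a bases 1 to 222 match bases 79 to 300 of the Plac9b window. Tmem254a bases 17 to 300 match bases 1 to 284 of the Tmem254b window. The windows are thus offset, and the lower-case bases fall outside the other copy's window and were not compared. The sequences are RefSeq's, at chr14:25902844-25903143 and chr14:25927623-25927922, minus strand, GRCm38.p6.
Plac9a promoter: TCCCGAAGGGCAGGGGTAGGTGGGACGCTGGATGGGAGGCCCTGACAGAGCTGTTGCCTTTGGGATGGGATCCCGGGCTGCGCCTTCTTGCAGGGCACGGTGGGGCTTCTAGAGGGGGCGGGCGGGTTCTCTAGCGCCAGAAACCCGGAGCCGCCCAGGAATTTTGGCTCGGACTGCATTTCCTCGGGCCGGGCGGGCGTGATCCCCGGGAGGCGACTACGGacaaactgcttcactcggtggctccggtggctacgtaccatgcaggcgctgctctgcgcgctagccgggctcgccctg
Tmem254a promoter: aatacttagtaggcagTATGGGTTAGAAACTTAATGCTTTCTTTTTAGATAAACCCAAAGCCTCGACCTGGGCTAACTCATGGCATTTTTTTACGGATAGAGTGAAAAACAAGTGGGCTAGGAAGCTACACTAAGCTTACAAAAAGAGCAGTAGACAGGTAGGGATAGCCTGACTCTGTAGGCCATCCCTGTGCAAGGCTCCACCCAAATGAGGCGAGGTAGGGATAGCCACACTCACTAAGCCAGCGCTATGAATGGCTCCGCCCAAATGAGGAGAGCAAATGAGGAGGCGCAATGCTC
The forkhead motifs TGTTTAC and TATTTAC, searched on both strands, occurred in 0 of 7 promoter windows that the table holds for 6 of the 10 genes. They occurred in 3.65% and 3.04% of all 32851 windows, which says only that these letters are not in these windows.

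Entpd4 was read by 2 probes 16.9 kb apart, both lower in knockouts. The first, A_51_P302222 at chr14:64228679-64228738, measured -0.34 and -0.50 in knockout saline lungs, against 0.87, 0.56 and 0.65 in wild-type saline lungs. In OVA lungs it measured -0.65, -0.66 and -0.34 in knockouts, against 0.45, 0.47 and 0.28 in wild type. That is a mean difference of -1.03 ± 0.10, 2.05-fold lower in knockouts, with 0.62 log2 units between the genotypes. The second, A_52_P582907 at chr14:64211736-64211795, differed by -0.98 ± 0.17, with knockouts between -4.65 and -3.86 and wild type between -3.73 and -2.75.

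**Figure D1:**
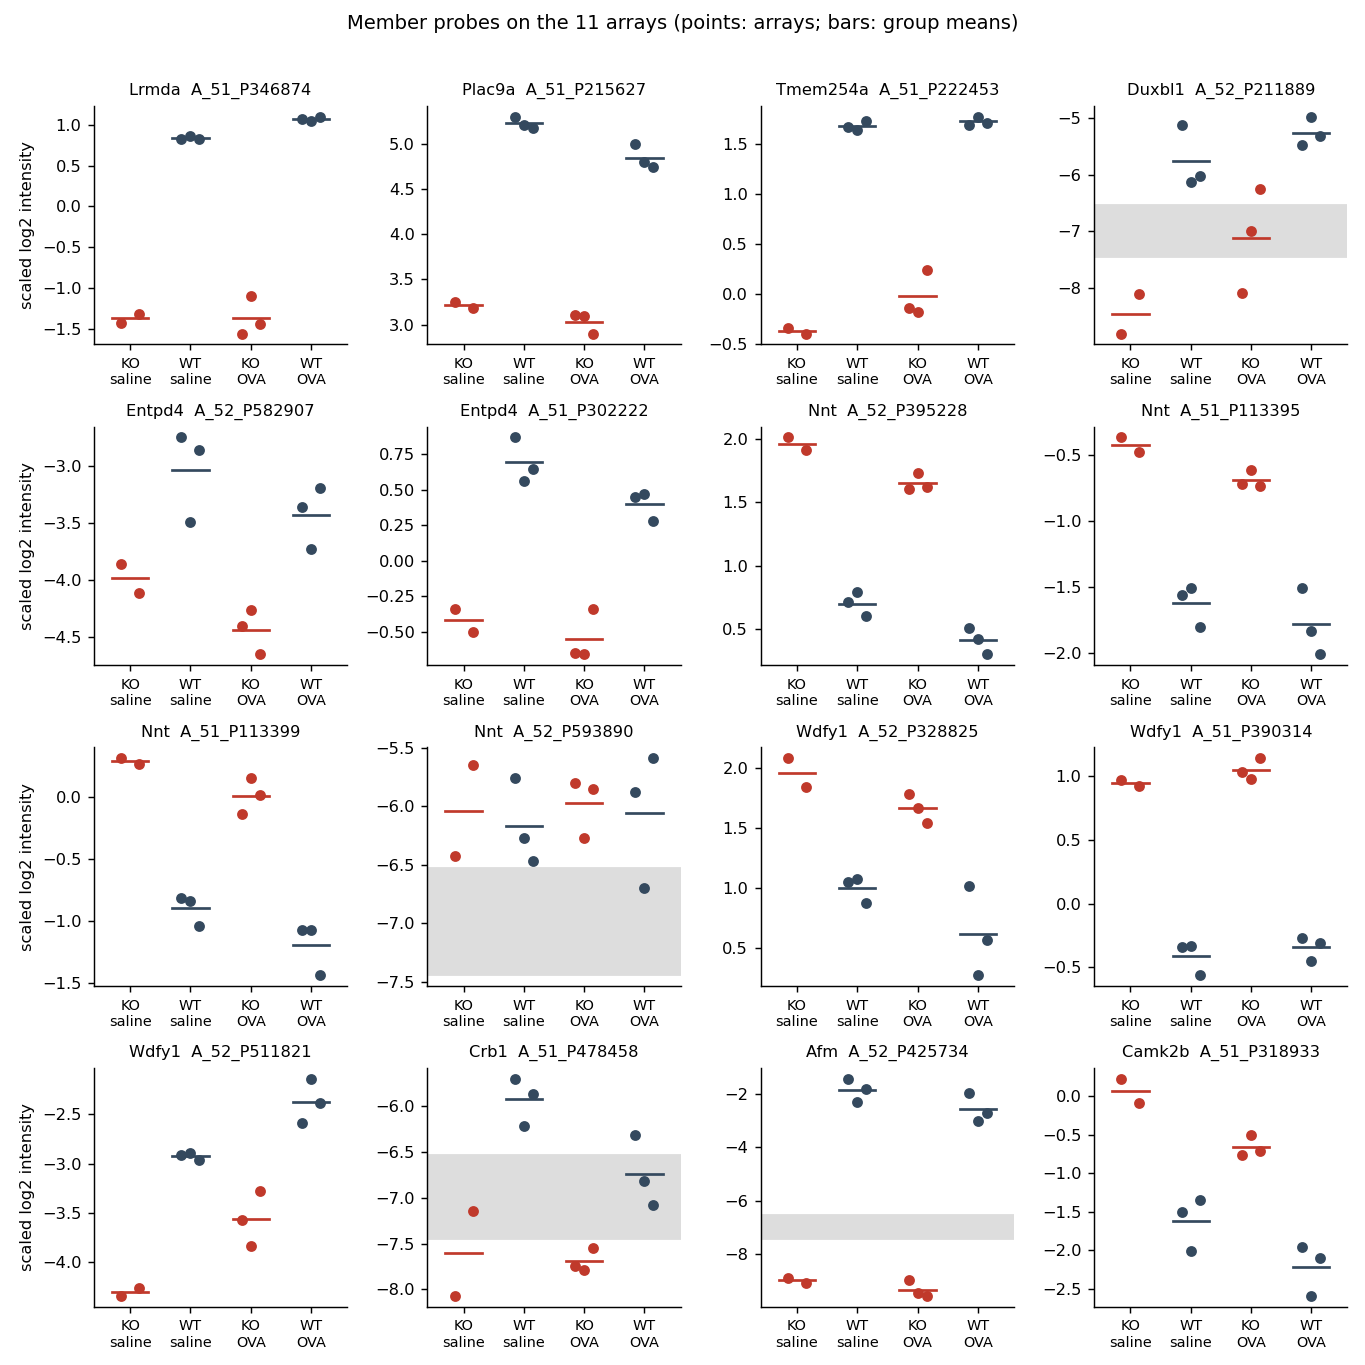
Scaled log2 intensity (vertical axis, own scale in each panel) of the 16 tested probes on the 11 arrays, by group, knockout in red and wild type in dark blue. Points are arrays, bars are group means and the grey band spans the arrays' background limits. In 15 of the 16 panels the knockout and wild-type points do not overlap, and in the panel of Nnt A_52_P593890 they do.

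Afm and Crb1 were the genes that sat at background in knockout lung. The Afm probe at chr5:90524738-90524797 measured -8.89 and -9.08 in knockout saline lungs, against -1.43, -2.28 and -1.82 in wild-type saline lungs. After OVA it measured -9.00, -9.48 and -9.58 in knockouts, against -1.97, -3.00 and -2.72 in wild type. No knockout array and all 6 wild-type arrays detected it, so Afm was at least 29.5-fold lower in knockouts after saline and at least 23.8-fold lower after OVA. Values below background are not measured levels, so no difference beyond these bounds is given. In the authors' deposited table the same probe differed by -2.80.

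A second Afm probe, 5.1 kb away at chr5:90519668-90519727, did not follow this pattern. It was well above background on 1 of 11 arrays, wild-type OVA replicate 1 at -3.58, and lay between -9.47 and -7.50 on the other 10. Liver markers are given beside Afm because liver is its main source. Of 10 hepatocyte markers 8 were tested, and limma called 0 between genotypes, with 1 at an unadjusted p under 0.05. Over all 32946 tested probes limma called 0.222%, with 2251 at an unadjusted p under 0.05. Their summed linear level, in units of the array's 75th percentile, was 0.664 to 0.890 in knockout saline and 0.584 to 3.49 in wild-type saline lungs. The 3.49 was wild-type saline replicate 3, where Alb measured 0.27 against -4.10 and -3.91 on replicates 1 and 2. After OVA the sum was 0.919 to 1.35 in knockouts and 0.904 to 1.13 in wild type. Albumin (Alb), of the same family and 75.9 kb from Afm, differed by -1.36 (limma adjusted p 0.817). The relatives Afp and Gc differed the other way, by 0.65 and 0.16 (limma adjusted p 0.427 and 0.962). Ttr was not well above background on any array.

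Crb1 was read by 4 probes, of which 3 were not well above background on any array and were not tested. The fourth, at chr1:139081352-139081411, was well above background only on the 3 wild-type saline arrays. It measured -8.07 and -7.14 in knockout saline lungs, against -5.70, -6.21 and -5.86 in wild-type saline lungs, at least 1.74-fold lower in knockouts. After OVA both groups were below the detection limit, with knockouts at -7.79 to -7.55 and wild type at -7.08 to -6.31, and no fold is given. The difference over both challenges was -0.19 in the authors' deposited table.

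Nnt and Camk2b were higher in knockout lung. Nnt probe A_52_P395228, at chr13:116544819-116544878 (minus strand), measured 2.01 and 1.91 in knockout saline lungs, against 0.71, 0.79 and 0.60 in wild-type saline lungs. After OVA it measured 1.60, 1.73 and 1.62 in knockouts, against 0.51, 0.42 and 0.30 in wild type. The mean difference was 1.25 ± 0.07, a 2.38-fold higher level in knockouts, and the genotypes were separated by 0.81 log2 units. Probes A_51_P113399 and A_51_P113395, within the same kilobase, differed by 1.19 ± 0.10 and 1.15 ± 0.11.

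The fourth Nnt probe, A_52_P593890, lies 57.7 kb away at chr13:116603069-116603127 on the same strand. It was dim, and its knockout values of -6.43 to -5.65 overlapped its wild-type values of -6.70 to -5.59. The difference was 0.10 ± 0.24, and its sign changed with the processing.

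Camk2b, at chr11:5921835-5921894, measured 0.22 and -0.09 in knockout saline lungs, against -1.51, -2.01 and -1.35 in wild-type saline lungs. In OVA lungs it measured -0.76, -0.51 and -0.71 in knockouts, against -1.96, -2.59 and -2.10 in wild type. The mean difference was 1.62 ± 0.16, 3.08-fold higher in knockouts, with 0.59 log2 units between the genotypes. Neuronal markers are given beside Camk2b because brain is where it is best known. Of 8 neuron markers 6 were tested, and limma called 0 between genotypes, with 0 at an unadjusted p under 0.05. Their summed linear level was 14.3 to 25.1 in knockout saline and 16.1 to 27.7 in wild-type saline lungs, and 15.3 to 25.4 in knockout OVA and 23.5 to 29.0 in wild-type OVA lungs. This sum is mostly Syn1, which lay between 3.67 and 4.78, while each other tested neuron marker lay at 0.06 or lower. The neurofilament genes Nefl and Nefm were not well above background on any array. Heart muscle also holds CaMKII. Of 8 cardiac markers limma called 0 (0.222% of all probes), with 6 at an unadjusted p under 0.05 (2251 of all 32946 probes). All 8 were lower in knockouts. Their summed linear level was 42.5 to 52.0 in knockout saline and 66.6 to 89.4 in wild-type saline lungs, and 32.7 to 53.5 in knockout OVA and 33.9 to 60.3 in wild-type OVA lungs. Of 7 skeletal muscle markers limma called 0, with 0 at an unadjusted p under 0.05, and their genotype differences ran from -0.94 to 0.08. The part of neuronal, cardiac or skeletal muscle RNA in the Camk2b difference was not tested.

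Wdfy1 differed in both directions, depending on the probe. Probe A_51_P390314, at chr1:79926145-79926204, measured 0.97 and 0.92 in knockout saline lungs, against -0.34, -0.33 and -0.56 in wild-type saline lungs. In OVA lungs it measured 1.03, 0.98 and 1.14 in knockouts, against -0.27, -0.45 and -0.31 in wild type. It was thus higher in knockouts by 1.37 ± 0.08, or 2.59-fold, with 1.19 log2 units between the genotypes. Probe A_52_P328825, at chr1:79924980-79925039, also read higher in knockouts, by 1.00 ± 0.14.

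Probe A_52_P511821, 13.6 kb away at chr1:79939763-79939822 on the same minus strand, read lower in knockouts. It measured -4.34 and -4.26 in knockout saline lungs, against -2.91, -2.89 and -2.96 in wild-type saline lungs. After OVA it measured -3.57, -3.83 and -3.28 in knockouts, against -2.59, -2.14 and -2.38 in wild type. The difference was -1.28 ± 0.12, or 2.43-fold lower in knockouts, with 0.32 log2 units between the genotypes. The files give the 2 probes with the higher reading and this one different transcript sequences under the same gene symbol, and no mm7 gene model was used here to place them in exons.

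**Figure D2:**
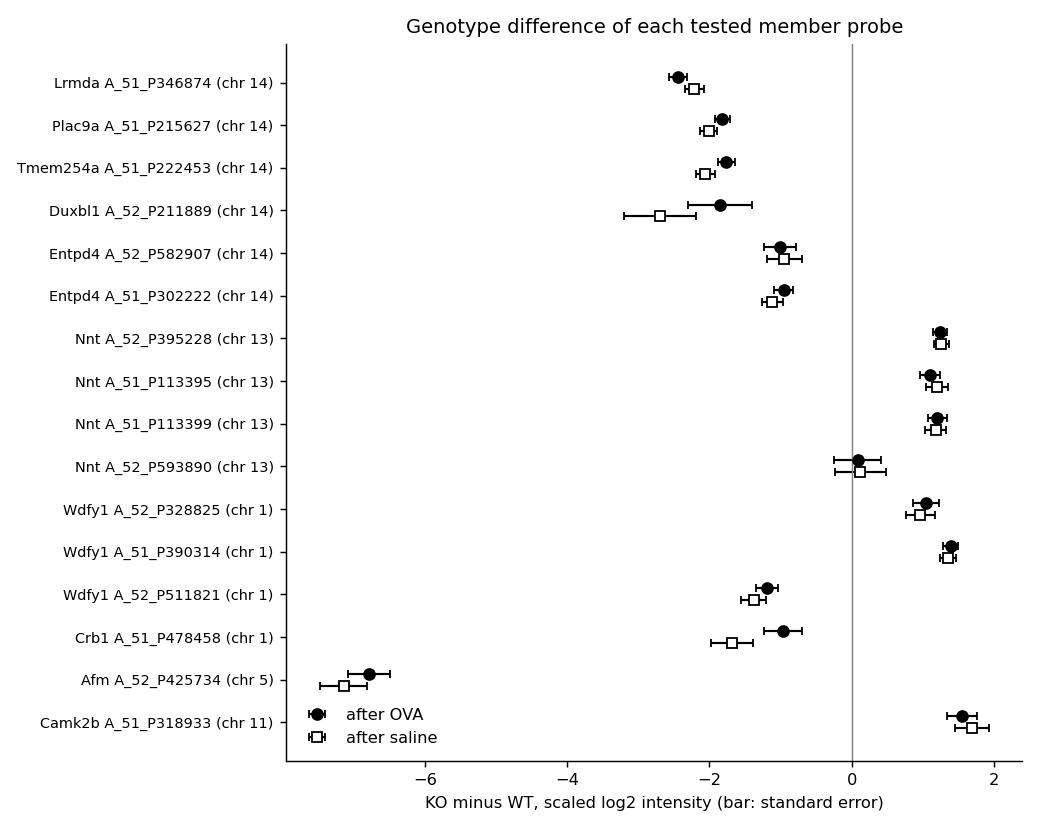
Knockout minus wild-type difference in scaled log2 intensity (horizontal axis, points with standard error bars) of the 16 tested probes after OVA (filled circles) and after saline (open squares). The difference has the same direction after both challenges at each probe, up to 1.69 for Camk2b after saline, and is near 0 for Nnt A_52_P593890. Points of Afm and Crb1, and of Duxbl1 after saline, are set against knockout arrays below background and are not measured sizes.

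In all, 15 of the 16 tested probes had knockout and wild-type arrays that did not overlap, against 256 of 32767 probes with a value on every array (0.781%). This is the contrast the genes were picked on, so nothing is read from that count. Within slides, which hold 1 array of each group (slide 3 lacks a knockout saline array), the 5 knockout minus wild-type differences ran from -2.66 to -2.14 for Lrmda, from -2.12 to -1.64 for Plac9a and from -2.08 to -1.45 for Tmem254a. They ran from 1.11 to 1.31 for Nnt A_52_P395228 and from 1.24 to 2.23 for Camk2b. For Duxbl1 they ran from -2.74 to -0.77 in the 3 OVA pairs, of which 1 has its knockout array below background.

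How far the difference reached along the chromosome was measured with the other probes within 1 Mb of each gene, in the coordinates of the files. Of 236 such probes for 162 genes, limma called 4 between genotypes, all lower in knockouts and all on chromosome 14, against 0.137% of all tested probes called lower. Near Entpd4 3 of 54 probes were called, and near Lrmda 1 of 3, with 6 and 2 at an unadjusted p under 0.05. The second near Lrmda was the clone AK033234, 249.6 kb away, which was not called (limma adjusted p 0.0539). No knockout array detected it, and it was at least 1.74-fold lower in knockouts after OVA. Chromosome 14 held 10 called probes of 1150 tested (0.87%). Of these, 5 were probes of the genes described here and 4 were the called neighbours. The last 1 was Mcpt4, a mast cell protease at -0.80 ± 0.10, named after its value was seen.

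One called neighbour was a probe named Slc25a37, 96.4 kb from the Entpd4 probes at chr14:64325153-64325212 (minus strand). Slc25a37 is mitoferrin, the iron importer of mitochondria in red cell precursors. This probe measured -8.76 and -8.97 in knockout saline lungs, against -2.93, -2.98 and -2.82 in wild-type saline lungs. After OVA it measured -8.87, -9.38 and -9.49 in knockouts, against -2.76, -2.76 and -2.68 in wild type. No knockout array and all 6 wild-type arrays detected it, and it was at least 14.1-fold lower in knockouts after saline and at least 21.2-fold lower after OVA (adjusted p 4.18e-08 over both challenges, limma). The other Slc25a37 probes, A_51_P343429 and A_52_P507688, differed by -0.09 ± 0.19 and -0.23 ± 0.15 and were not called (limma adjusted p 0.973 and 0.857). They start at chr14:64104507 and chr14:64107682, on the other side of Entpd4 from the called probe. No mm7 gene model was used here to place the called probe within Slc25a37.

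The clone AK038254, 39.1 kb from Entpd4, was also below background on every knockout array. Its 5 knockout arrays ran from -8.70 to -7.19 and its 6 wild-type arrays from -3.43 to -3.17, at least 10.1-fold lower in knockouts after saline and at least 14.9-fold lower after OVA (limma adjusted p 2.94e-07). AK086749, the clone whose probe is complementary to that of Entpd4, ran from -9.24 to -7.63 in knockouts and from -5.89 to -5.14 in wild type, at least 2.77-fold lower after saline and at least 2.93-fold lower after OVA (limma adjusted p 0.00112).

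AK084429, 365.3 kb from Lrmda, measured -6.07 and -6.14 in knockout saline lungs, against -3.83, -3.96 and -4.06 in wild-type saline lungs. In OVA lungs it measured -4.85, -5.93 and -5.36 in knockouts, against -3.19, -3.14 and -2.74 in wild type. The difference of -2.26 ± 0.18 (limma adjusted p 0.00095) is close in size to that of Lrmda. Under normexp background correction of the spots' mean signal, all 4 neighbours lost the call (adjusted p 0.32 for Slc25a37 and 0.455 for the others), and AK086749 and AK084429 also lost it without slide 1. In the authors' deposited table the differences were -2.09 for Slc25a37, -1.50 for AK038254, -0.53 for AK086749 and -1.11 for AK084429.

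Around the other loci no neighbour passed. Limma called 0 of 32 probes within 1 Mb of Plac9a, Tmem254a and Duxbl1, with 2 at an unadjusted p under 0.05. Among them the homeobox gene Cphx1, 65.4 kb from Plac9a and well above background on 5 of 11 arrays, averaged -7.55 in knockout saline and -6.45 in wild-type saline lungs, and -7.52 in knockout OVA and -5.83 in wild-type OVA lungs (adjusted p 0.375). Limma called 0 of 10 probes near Nnt, 0 of 20 near Wdfy1, 0 of 23 near Crb1, 0 of 30 near Afm and 0 of 64 near Camk2b. At an unadjusted p under 0.05 were 0, 1, 1, 2 and 4, in that order. Over all 32946 tested probes 0.222% were called, and 2251 had an unadjusted p under 0.05. Zeros among so few probes are near that share, so they do not show how far the difference reached at these loci.

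**Figure D3:**
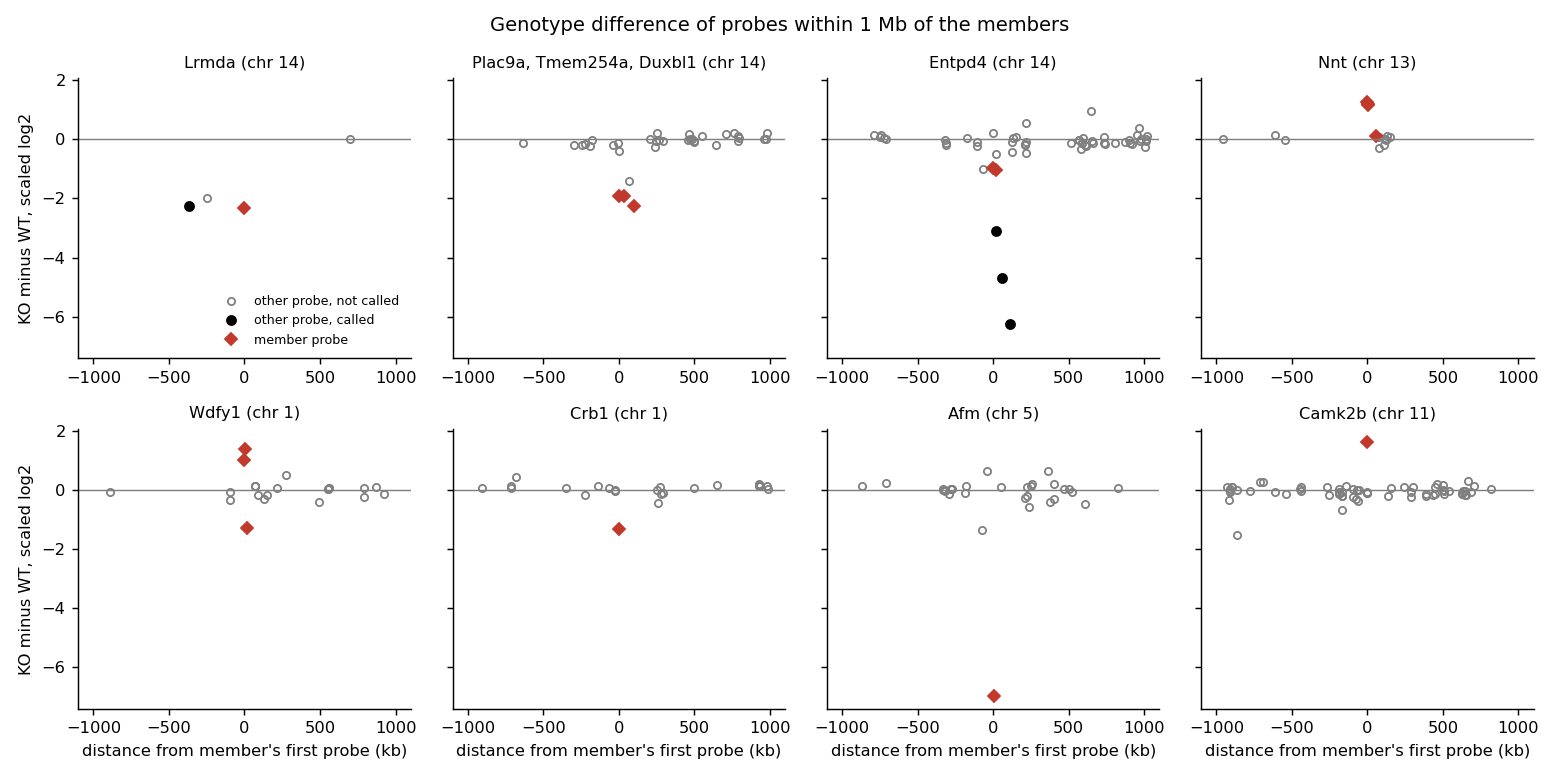
Knockout minus wild-type difference in scaled log2 intensity (vertical axis) of probes within 1 Mb, by distance in kb from the first probe of each gene (horizontal axis). Red diamonds are the genes described here, filled circles the 4 neighbours called by limma and open circles the other probes. The called neighbours lie at -6.23, -4.70 and -3.09 around Entpd4 and at -2.26 near Lrmda. The 3 around Entpd4 were below background in knockouts, so their depth on the plot is not a measured size.

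The OVA effect was not used to pick the genes, so it could be tested. Over both genotypes limma called 5 of the 16 probes at an adjusted p under 0.05, 4 lower and 1 higher after OVA, where 35.8% of all 32946 probes were called (19.0% lower and 16.8% higher). Afm and Crb1 entered the fit only through wild-type arrays, and Duxbl1 was below background after saline in knockouts, so for these 3 the OVA difference was not measured in knockouts. All 5 calls were among the other 13 probes, whose median size of OVA difference was 0.28 log2 units, against 0.28 over all tested probes.

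Camk2b fell with OVA by 0.66 ± 0.16 log2 units (adjusted p 0.013, limma), by 0.73 in knockouts and by 0.59 in wild type. Its knockout OVA arrays all lay below its knockout saline arrays, and in wild type the ranges overlapped. Nnt probe A_52_P395228 fell by 0.30 ± 0.07 (adjusted p 0.0136), with OVA arrays below saline arrays in both genotypes. Plac9a fell by 0.28 ± 0.08 (adjusted p 0.023), by 0.19 in knockouts and by 0.38 in wild type, again with no overlap in either genotype. Within slides the OVA minus saline differences ran from -1.24 to 0.05 for Camk2b, from -0.41 to -0.18 for Nnt and from -0.56 to -0.08 for Plac9a. With slide as a block the adjusted p was 0.0308 for Camk2b, 0.0267 for Nnt and 0.0505 for Plac9a.

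Nnt probe A_51_P113399 also passed, falling by 0.29 ± 0.10 (adjusted p 0.047), but it lost the call in 17 of 22 alternative settings, where adjusted p ran from 0.0346 to 0.899. The third Nnt probe of this cluster differed by -0.21 ± 0.11 (adjusted p 0.145).

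The Wdfy1 probe that read lower in knockouts, A_52_P511821, rose with OVA by 0.64 ± 0.12 (adjusted p 0.00451, limma), by 0.74 in knockouts and by 0.55 in wild type. Its OVA arrays lay above its saline arrays in both genotypes, and within slides the differences ran from 0.30 to 1.06 (slide block adjusted p 0.0145). The Wdfy1 probes that read higher in knockouts did not pass, at 0.09 ± 0.08 for A_51_P390314 (adjusted p 0.421) and -0.34 ± 0.14 for A_52_P328825 (adjusted p 0.0751).

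Lrmda, Tmem254a and Entpd4 did not pass the OVA test. Lrmda differed by 0.12 ± 0.09 (adjusted p 0.334), Tmem254a by 0.19 ± 0.09 (adjusted p 0.124) and Entpd4 A_51_P302222 by -0.21 ± 0.10 (adjusted p 0.118). Duxbl1, Afm and Crb1 did not pass either (adjusted p 0.0599, 0.0882 and 0.112), in a test that averages in knockout arrays below background. In wild type alone Duxbl1 differed by 0.50 ± 0.45 with OVA and Crb1 was at least 1.62-fold lower after OVA. In wild type Afm measured -2.56 ± 0.53 after OVA, against -1.84 ± 0.43 after saline (SD, n = 3 each).

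OVA moved the makeup of the lung RNA at the same time. All 4 endothelial markers fell, and their summed linear level was 22.4 to 29.8 in knockout OVA lungs against 40.6 to 42.8 in knockout saline lungs, and 21.2 to 29.3 in wild-type OVA lungs against 37.3 to 42.8 in wild-type saline lungs. Of 6 leukocyte markers 4 rose and 0 fell, where 16.8% of all probes rose and 19.0% fell. The part of these shifts in the OVA differences of Camk2b, Nnt, Plac9a and Wdfy1 was not tested.

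The OVA difference had the same sign in both genotypes at 13 of the 13 probes measured in all 4 groups. The same count was not made over all tested probes, so nothing is read from it. Some of these signs rest on differences within their standard error. Lrmda differed by 0.01 ± 0.14 in knockouts, and Nnt A_52_P593890 by 0.07 ± 0.36 in knockouts and 0.11 ± 0.33 in wild type. The difference between the genotypes' OVA effects was 0.02 to 0.30 log2 units in size at the 13 probes, with a median of 0.10 against 0.14 over all tested probes. Since the genes were picked on genotype after both challenges, this difference was not tested for them.

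**Figure D4:**
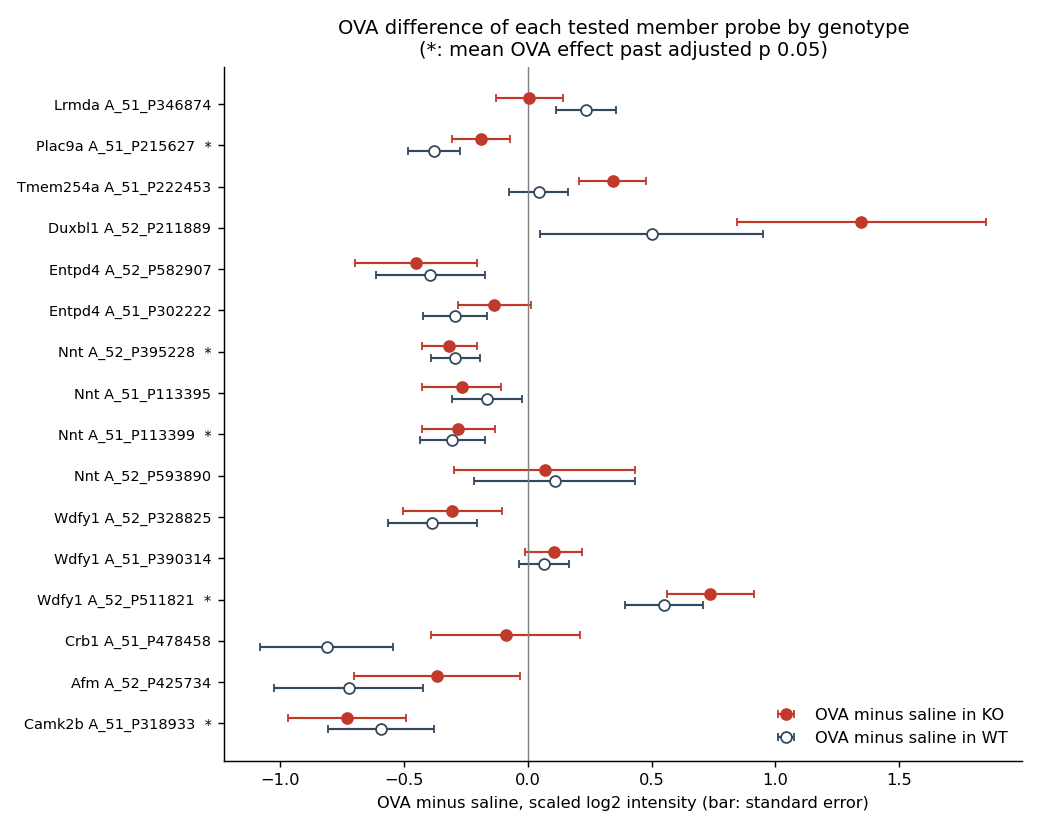
OVA minus saline difference in scaled log2 intensity (horizontal axis, points with standard error bars) of the 16 tested probes in knockout (filled red) and wild type (open blue). Stars mark the 5 probes whose mean OVA effect passed limma's adjusted p of 0.05. Camk2b, Plac9a and the starred Nnt probes lie below 0 in both genotypes, and the starred Wdfy1 probe above 0 in both.

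Other genes of the pathways and families of these genes are given beside them. Where a gene had several probes, the brightest stood for it. Of 88 such genes tested, limma called 0 between knockout and wild type, against 0.222% of all probes. At an unadjusted p under 0.05 were 6, against 2251 of all 32946 probes. These counts are near the shares of all probes, and nothing is read from them. Their median genotype difference was 0.04, against 0.01 over all tested probes. With OVA 23 of the 88 rose and 17 fell, against 16.8% of all probes higher and 19.0% lower, so the share that fell is near that background. Here and in the lists below the counts are of genes by their brightest probe. The shares beside them are over all tested probes, dim ones included, so the units are not alike.

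Around Nnt, 15 other mitochondrial NADPH and peroxide genes were tested, of which 8 rose and 2 fell with OVA (16.8% of all probes rose and 19.0% fell). Mthfd2, a folate enzyme of mitochondria, rose by 1.79 ± 0.15 (adjusted p 0.000259, limma), and the glutathione peroxidase Gpx1 rose by 0.65 ± 0.11 (adjusted p 0.00384). The malic enzyme Me3 fell by 1.07 ± 0.23 (adjusted p 0.00787), and glutathione reductase (Gsr) rose by 0.41 ± 0.09 (adjusted p 0.00948). Their genotype differences ran from -0.32 to 0.16, against 1.25 for Nnt.

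Around Camk2b, 16 other calcium/calmodulin kinase, inhibitor and calmodulin genes were tested, of which 3 rose and 3 fell with OVA, shares near the 16.8% and 19.0% of all probes. Camk4, a kinase of lymphocytes and neurons, rose by 1.16 ± 0.14 (adjusted p 0.000921, limma). Camkk2, a kinase that activates Camk4, rose by 0.51 ± 0.09 (adjusted p 0.00403). Camk2n1, an inhibitor of CaMKII, fell by 1.08 ± 0.23 (adjusted p 0.00805). Genotype differences in this list ran from -0.36 to 0.35.

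Around Wdfy1, 11 genes of the WDFY family and the TRIF route were tested, of which 5 rose and 0 fell with OVA, against 16.8% and 19.0% of all probes. Wdfy4, a protein of cross-presenting dendritic cells, rose by 0.71 ± 0.12 (adjusted p 0.00291, limma), and Wdfy2 by 0.81 ± 0.14 (adjusted p 0.00394). The adaptor TRIF itself (Ticam1) rose by 0.38 ± 0.09 (adjusted p 0.00993), and TRAM (Ticam2), which brings TRIF to Tlr4, rose by 1.34 ± 0.30 (adjusted p 0.0101). No knockout saline array detected Ticam2, so its rise over both genotypes is not a measured size. In wild type alone Ticam2 differed by 1.25. Genotype differences in this list ran from -0.17 to 0.65. Around Crb1, 17 Crumbs, Par and Scribble complex genes were tested, of which 0 rose and 8 fell (all probes, 16.8% and 19.0%). The Crumbs adaptor Mpp5 fell by 0.82 ± 0.14 (adjusted p 0.00353) and its partner Patj by 0.71 ± 0.13 (adjusted p 0.00405). The Par complex genes Pard6g and Pard3 fell by 0.65 ± 0.12 (adjusted p 0.00471) and 0.64 ± 0.12 (adjusted p 0.00508). Genotype differences in this list ran from -0.35 to 0.63. The highest was Crb2 at 0.63 ± 0.17, opposite in direction to Crb1 and not called (limma adjusted p 0.428). Of 8 lung epithelial markers limma called 1 higher and 3 lower with OVA, against 16.8% and 19.0% of all probes. The part of epithelial RNA in the falls of this list was not tested.

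Around Entpd4, 14 ectonucleotidase and adenosine genes were tested, with 3 higher and 3 lower after OVA, near the shares of all probes (16.8% higher, 19.0% lower). Adenosine kinase (Adk) fell by 0.55 ± 0.11 (adjusted p 0.0059, limma), and Entpd7, a nucleoside triphosphatase, rose by 0.98 ± 0.19 (adjusted p 0.00614). Enpp1, which makes pyrophosphate from ATP, rose by 0.74 ± 0.16 (adjusted p 0.00897), and the ATPase Entpd2 fell by 0.37 ± 0.11 (adjusted p 0.0277). Their genotype differences ran from -0.18 to 0.16.

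Around Lrmda, 8 of 11 other melanosome genes were tested and 3 rose with OVA (16.8% of all probes), while Oca2, Tyr and Tyrp1 were too dim to test. The melanocyte transcription factor Mitf rose by 1.31 ± 0.23 (adjusted p 0.00392), the melanosome protein Pmel by 0.76 ± 0.12 (adjusted p 0.00288) and the melanosome trafficking protein Rab32 by 0.64 ± 0.11 (adjusted p 0.00403). In the albumin family, the vitamin D-binding protein Gc fell by 0.88 ± 0.25 (adjusted p 0.025). Beside Duxbl1, 3 of 7 double homeobox and early embryo genes were tested. Among them Tcstv3 rose with OVA by 1.57 ± 0.17 (limma adjusted p 0.000581), by 0.87 in knockouts and by 2.27 in wild type. After OVA Tcstv3 measured -3.36, -3.17 and -3.07 in knockouts, against -2.16, -2.06 and -1.53 in wild type. That genotype difference did not pass (limma adjusted p 0.104 after OVA). Of the copies of the chromosome 14 genes, Cphx1 was the only other one tested, and Plac9b, Tmem254b, Tmem254c, Duxbl2, Duxbl3, Cphx2, Cphx3 and Entpd4b had no probe named for them. The other Foxa factors, Foxa1 and Foxa2, differed between genotypes by -0.04 ± 0.15 (adjusted p 0.988) and 0.10 ± 0.12 (adjusted p 0.936), and fell with OVA by 0.53 ± 0.15 (adjusted p 0.0225) and 0.48 ± 0.12 (adjusted p 0.0139).

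The genes whose levels followed these most closely were sought over the 11 arrays, by the root-mean-square difference of values centred on each probe's mean. For 9 of the 10 genes the nearest was a gene of chromosome 7, and for Afm it was the Slc25a37 probe near Entpd4, at 0.571 log2 units, with both below background in knockouts. Napa was nearest to Lrmda (0.359) and Plac9a (0.150), Nectin2 to Tmem254a (0.235), Qpctl to Duxbl1 (0.648), Zfp27 to Entpd4 (0.136) and Lgals4 to Crb1 (0.334). Among the genes higher in knockouts, Dmkn was nearest to Nnt (0.086), Zfp420 to Wdfy1 (0.144) and Rhpn2 to Camk2b (0.302). The second nearest were C5ar2 to Lrmda (0.470), Lgals4 to Plac9a (0.366), Napa to Tmem254a (0.299), Nectin2 to Duxbl1 (0.678), and Bcam to Entpd4 (0.153) and Crb1 (0.343). They were Fxyd1 to Nnt (0.195), Dmkn to Wdfy1 (0.161), Igsf23 to Camk2b (0.337) and Zfp74 to Afm (1.06), all of chromosome 7. This likeness is a description over arrays that share the genotype groups on which the 10 genes were picked. The 10 genes were picked away from chromosome 7 and left out of the search. Chromosome 7 holds 37 of the 73 probes called between genotypes. The count of 9 of 10 is therefore partly set by that choice, and nothing is read from it.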

How the data were processed

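Total RNA of lung from 11 samples in 4 groups was read on one-colour Agilent arrays. The deposited scanner files give background-subtracted spot intensities from Feature Extraction 9.5.1.1 per the file headers, or 9.1 per the submitters' processing notes, with positions in mouse build mm7. The deposited value table holds log2 values of the same arrays, a scale read from the values (column medians 7.669 to 7.674, rank correlation with the scanner's median signal 0.99992 to 0.99998), and its normalization is not stated. Depth has no meaning for arrays, so the number of arrays limits the precision.

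The main levels are log2 of the processed signal minus each array's 75th percentile. A probe was kept where 2 or more of the 11 arrays had the scanner's detection call. A model of 4 group means was fitted to all 32946 probes with limma 3.58.1 in R 4.3.3, with 7 residual and 2.08 prior degrees of freedom, two-sided, with Benjamini-Hochberg adjustment over all probes and a threshold of 0.05. Python 3.11.15 made the tables. The fit was tested on simulated data. The genotype contrasts average or take singly the challenges, and the OVA contrast averages the genotypes.

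The 10 genes and the gene lists were chosen with earlier results of these data known. The named genes are these 10, the neighbours within 1 Mb that passed, and up to 4 passing genes of each list by smallest p. The 2 genes most like each member over the arrays are named too. Marker genes, Cphx1, Mcpt4, AK033234 and probes of 1 gene beside another are named besides. Gene names come from each probe's accession (23075 probes), current symbol (6587) or synonym (3072) in RefSeq's GRCm38.p6 table, and otherwise from the file (8398, and 42 with several candidates). Bounds ("at least") set the brighter group's mean against the lowest signal well above background on each array of the dimmer group.

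Alternatives were normexp background correction (offset 50, also without spots whose local background was over 10 times the array's median), median and quantile scaling, both filters on dim probes, 1 probe per gene, a trended robust prior, slide or replicate number as a block, the authors' value table, only the groups compared, and leaving out slide 1 or each array.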

Additional observations from a re-analysis of the deposited data

How the results depend on the processing

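Counts of called probes were 73 between genotypes over both challenges, 34 after saline, 62 after OVA alone and 11796 for OVA, in the settings of the report. With normexp they were 5, 0, 1 and 615. Normexp called 111 after OVA alone once spots of bright local background were left out, of which there were 7 on wild-type saline replicate 2 and 5 on wild-type OVA replicate 1. Genotype calls after OVA alone numbered 105 with a trended robust prior, 32 with the slide block, 112 in the authors' value table and 14 with only the groups compared. Genotype calls after saline numbered 21 with 1 probe per gene and 13 with only the groups compared. Without slide 1 the counts were 10, 6, 4 and 252. The replicate numbers did not pair the samples: same-numbered arrays correlated at -0.357 to 0.271 (median -0.083), with 4 of 15 pairs over 0.1, and the replicate block gave 19 calls after saline. Arrays of the same slide were more alike, at -0.151 to 0.432 (median 0.253), with 12 of 15 pairs over 0.1. Arrays of different slides had a median of -0.132, with 6 of 30 pairs over 0.1. The main fit has no term for slide. Leaving out 1 array gave 45 to 73 calls over both challenges (45 without knockout saline replicate 1), 16 to 33 after saline (16 without any 1 wild-type saline replicate, 20 without knockout saline replicate 1) and 7176 to 13027 for OVA (7176 and 7637 without knockout saline replicates 1 and 2). After OVA alone it gave 20 to 45 calls, with 20, 24 and 36 without knockout OVA replicates 1, 2 and 3, 23 and 33 without wild-type OVA replicates 2 and 3, 31 without knockout saline replicate 1 or 2, and 33 without wild-type saline replicate 2. Nnt A_52_P593890 changed sign: between genotypes it was -1.02 with normexp, 0 with the slide block and -0.094 to 0.300 leaving out 1 array, and with OVA -0.028 under quantile normalization, -0.02 in the authors' table and -0.108 to 0.286 leaving out 1 array. Of the OVA calls, Plac9a was lost in 6 of 23 settings (adjusted p 0.00782 to 0.509), Camk2b in 3 of 23 (0.00432 to 0.409), Nnt A_52_P395228 in 3 of 23 (0.00647 to 0.198) and Wdfy1 A_52_P511821 in 2 of 22 (0.00265 to 0.939), all 4 without slide 1. The cause was not tested. For probes near background, such as Afm, Crb1 and Duxbl1, the log2 difference depends on how background is subtracted.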
